A study of Homo sapiens with 12 samples.

Results

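Kinesins and cytoplasmic dyneins are the motor proteins that walk along microtubules, and their transcript levels were compared between DMSO-treated K562 cells and K562 cells in which the deubiquitinase USP7 was inhibited with FT671. A gene was taken as a member when GENCODE lists it as protein coding under a symbol that begins with KIF or KIFC and a digit, or with DYNC or DYNL. This gave 61 genes of the 60609 gene identifiers in the count files, and 45 of the 61 had enough counts to be tested. The members were divided by their known roles into 15 mitotic kinesins, 17 transport kinesins, 10 other kinesins and 19 dynein chains.

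K562 is an established human leukemia line with erythroid features, and FT671 is a small molecule that blocks the catalytic activity of USP7. The RNA-seq data hold 3 libraries of cells treated with DMSO and 3 of cells treated with 10 μM FT671, in both cases for 48 h, and the study describes them as independent experiments. Both groups are the same unmodified line, so the inhibitor is the only labelled difference. The 6 ChIP samples of the series were not analysed here.

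Kinesins use ATP to step along the microtubule, most of them toward the plus end, and dyneins step toward the minus end. Mitotic kinesins build and focus the spindle, move chromosomes and close the midbody in cytokinesis, and many of their genes are transcribed mainly in G2 and M phase. Transport kinesins carry vesicles, endosomes, lysosomes, mitochondria and ciliary cargo, and most cells use them throughout the cell cycle. Cytoplasmic dynein-1 is a large assembly of heavy, intermediate, light intermediate and light chains that brings cargo toward the cell centre and also acts in mitosis. Dynein-2 works in cilia.

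Late cell cycle genes often hold a short promoter element called the cell cycle homology region. Its letters, TTTGAA or TTCGAA, were searched on both strands in the RefSeq promoter windows of GRCh38.p14, which reach from 250 bases before to 50 bases after each transcription start. The 30-base stretches around the match are shown for the 5 mitotic kinesins whose expression changed, for KIF11, for KIF4A and its intronless copy KIF4B, and for KIF5B, the transport kinesin with a match. They run 5′ to 3′ on the strand of the gene, with the match in capitals, and a match on the other strand reads TTCAAA.
KIF18B: ccgcccggctaaTTTGAAcgcaaggcgccg
KIF23: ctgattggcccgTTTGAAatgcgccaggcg
KIFC1: tggccgttggaaTTCAAAagtggcgggtgt
KIF15: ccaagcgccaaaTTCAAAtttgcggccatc
KIF18A: aagtggcttgggTTTGAAtattgtggttga
KIF11: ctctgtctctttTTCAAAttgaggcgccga
KIF4A: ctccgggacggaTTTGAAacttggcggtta
KIF4B: ctctgggagggaTTTGAAacttggcggtta
KIF5B: agtgcagtaaaaTTTGAAtctgcgaccccg

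These stretches lie at chr17:44947754-44947783 on the minus strand for KIF18B, chr15:69414282-69414311 on the plus strand for KIF23 and chr6:33391815-33391844 on the plus strand for KIFC1. Those of KIF15, KIF11, KIF4A and KIF4B lie on the plus strand at chr3:44761747-44761776, chr10:92593090-92593119, chrX:70290058-70290087 and chr5:155013746-155013775. Those of KIF18A and KIF5B lie on the minus strand at chr11:28108149-28108178 and chr10:32056548-32056577. The letters were found in 11 of the 15 mitotic kinesin genes (73.3%), in each case within 60 bases before the start site or in the 50 bases after it. Of the 12 transport kinesins with a window in the table only KIF5B held them (8.33%), at 140 bases before its start. The other matches were in KIF24, in the light chain gene DYNLRB2 and in the dynein-2 gene DYNC2I2, and each of these genes held a match near the start. Of the 27305 genes in the promoter table, 19.5% held the letters anywhere in the window and 6.75% held them in the stretch near the start. For 10 members no window was given. A match is a description of the letters and says nothing about whether a factor binds there.

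**Figure D1:**
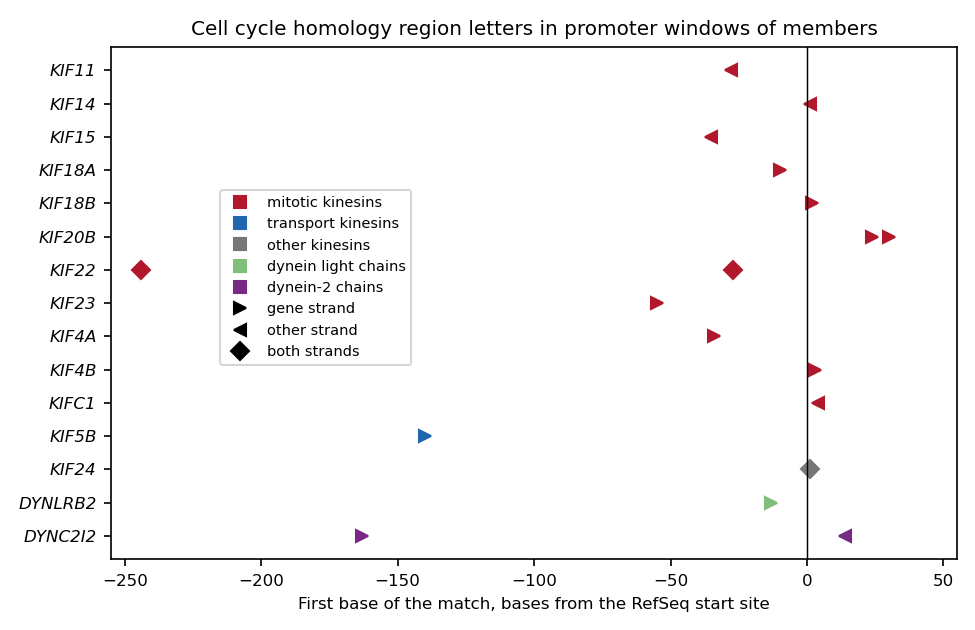
Position of each match to the cell cycle homology region letters in the promoter windows of members, in bases from the RefSeq transcription start on the x axis, with 1 row per gene coloured by role and arrows for the strand of the match. The mitotic matches cluster around the start, as does a match in each of KIF24, DYNLRB2 and DYNC2I2. The match of KIF5B lies at 140 bases before the start, and the pair of points for KIF22 is 1 site seen from 2 start sites.

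Expression is given as CPM, a gene's share of a library's counts scaled to a common library size by TMM. Differences between FT671 and DMSO were tested with the quasi-likelihood method of edgeR, and p-values were adjusted over the 13895 genes tested by the Benjamini-Hochberg procedure. Total counts ranged from 4555220 to 14250500 per library, and 3 counts, taken as the smallest detectable expression, equal 0.208 to 0.666 CPM. This floor covers counting error only. DMSO replicate 3 lay apart from the other DMSO libraries on the second principal component (−25.1 against 12.1 and 14.9), as did FT671 replicate 1 from the other FT671 libraries (16.1 against −10.9 and −7.27). Of 9 erythroid markers of K562, 8 passed the filter on low counts and HBE1 was near the floor. Of the tested markers 6 were downregulated (75%) and 2, the fetal globins HBG1 and HBG2, were upregulated (25%). Over all genes, 26.5% were downregulated and 23.6% were upregulated. The summed level of the erythroid list was 1227 to 1277 CPM with DMSO and 986 to 1023 CPM with FT671. Of 8 markers of other lineages, CD3E, CD8A, MS4A1 and MPO were at or near 0, but LYZ (50.8 to 75.6 CPM) and EPCAM (58.6 to 86.6 CPM) were expressed and upregulated, and this list summed to 116 to 121 CPM with DMSO and 161 to 167 CPM with FT671. The part of these marker changes in the values of the motors was not tested. All 6 libraries are bulk RNA, so fewer cells that express a gene and less RNA per cell cannot be told apart. P-values measure the spread between these 6 libraries.

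Upon USP7 inhibition, 16 of the 45 tested members were downregulated and 5 were upregulated at an adjusted p of 0.05. Over all genes tested, 26.5% were downregulated and 23.6% were upregulated at that threshold. Among the 11149 protein-coding genes tested, these shares were 29.1% and 24.7%. At an adjusted p of 1e-05, which the study used, 4 members were downregulated, namely KIF5B, KIF18B, KIF23 and KIF13A, against 4.13% of all genes by edgeR. DESeq2's Wald test called 6 members lower at 1e-05, adding KIFC1 and DYNC1LI1. No member was upregulated at 1e-05 by edgeR's quasi-likelihood test or by DESeq2's Wald test, against 1.79% of all genes, and 7 members were above DMSO at an unadjusted edgeR p of 0.05. Every FT671 library lay below every DMSO library for 16 of the 45 tested members and above for 9, against 30.3% and 26.8% of all genes. The median log2 fold change of the tested members was −0.08, and it was −0.01 over all genes. Of 32 kinesins tested, 14 were downregulated and 4 were upregulated. Of 13 dynein chains tested, 2 were downregulated and 1 was upregulated.

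**Figure D2:**
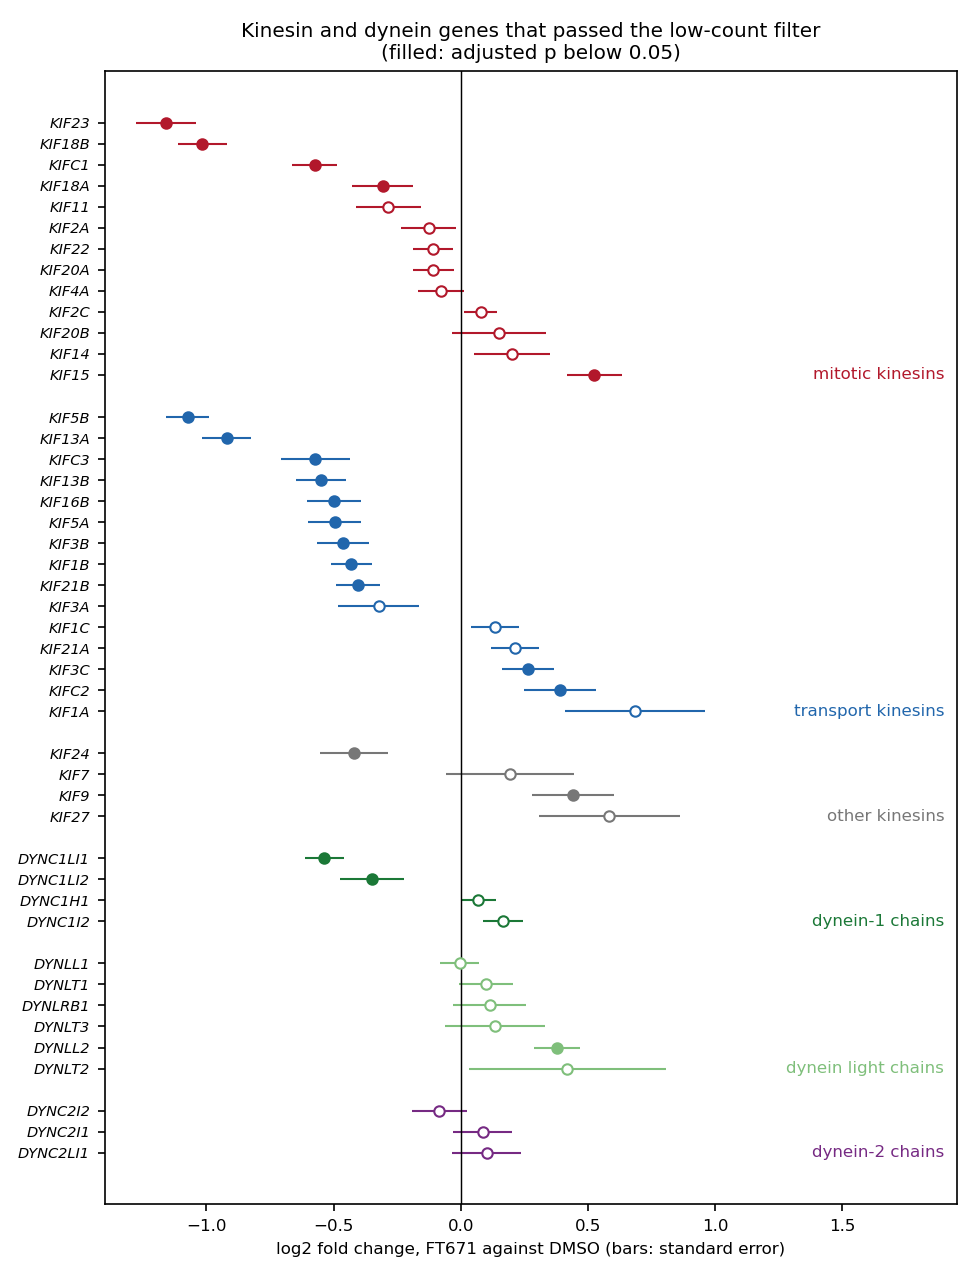
Log2 fold change of each tested member (FT671 against DMSO, x axis) with its standard error as a bar, 1 gene per row and grouped by role, filled where the adjusted p is below 0.05. KIF23, KIF18B and KIF5B lie beyond −1, most transport kinesins lie left of 0, and of the dynein chains DYNC1LI1 and DYNC1LI2 are filled to the left and DYNLL2 to the right.

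The mitotic kinesins went in both directions. Of 13 tested, 4 were downregulated (KIF23, KIF18B, KIFC1 and KIF18A), 1 was upregulated (KIF15), and 8 did not pass the test. These are 30.8% downregulated and 7.69% upregulated, beside 26.5% and 23.6% of all genes. The downregulated share was thus near that of all genes. The count of 4 downregulated genes ranged from 3 to 5 when a library was left out. The median log2 fold change of the mitotic kinesins was −0.11. Their summed expression was 1447, 1460 and 1576 CPM in DMSO replicates 1, 2 and 3 and 1362, 1358 and 1375 CPM in FT671 replicates 1, 2 and 3.

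KIF18B, a motor that limits the length of astral microtubules, stood at 91.1, 96.3 and 86.0 CPM in the DMSO libraries and at 50.4, 45.5 and 41.0 CPM in the FT671 libraries. The groups did not overlap, and the lowest DMSO library was well above the highest FT671 library. Its log2 fold change was −1.02 (SE 0.095, edgeR adjusted p = 1.53e-06), or 50.1% of the DMSO mean. KIF23, the motor of the centralspindlin complex that organises the midzone and midbody, stood at 37.0, 38.2 and 45.7 CPM with DMSO and at 16.2, 18.0 and 18.8 CPM with FT671. Every FT671 library was thus under every DMSO library, and the log2 fold change was −1.16 (SE 0.12, edgeR adjusted p = 3.49e-06). An antisense gene, KIF23-AS1, shares 231 exonic bases with KIF23 and held between 3 and 27 counts per library, against 73 to 535 for KIF23. KIFC1, a minus-end directed motor that bundles spindle microtubules and clusters centrosomes, stood at 141, 147 and 127 CPM with DMSO and at 97.5, 99.8 and 84.1 CPM with FT671. These values also kept apart, and KIFC1 fell by 0.57 on the log2 scale (SE 0.089, edgeR adjusted p = 1.18e-04).

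KIF15 went the other way. This plus-end motor helps to keep spindle poles apart and can stand in for KIF11. It stood at 42.6, 41.5 and 53.6 CPM with DMSO and at 62.6, 63.5 and 68.9 CPM with FT671. All FT671 libraries were higher, and the log2 fold change was 0.53 (SE 0.11, edgeR adjusted p = 0.00105). KIF18A, which dampens chromosome oscillations, fell by 0.31 (edgeR adjusted p = 0.0461), and this call was lost under 10 of 17 alternative settings. KIF11, the motor that separates the spindle poles, stood at 70.0, 60.5 and 90.6 CPM with DMSO and at 54.2, 62.6 and 61.8 CPM with FT671. Its groups overlapped, and the log2 fold change of −0.28 did not pass the test (edgeR adjusted p = 0.0767). It passed under 5 of 17 alternatives, among them that without DMSO replicate 2 (−0.40), and was −0.13 without DMSO replicate 3.

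The other mitotic kinesins that were not called had log2 fold changes of −0.13 for KIF2A and 0.08 for KIF2C (microtubule depolymerases), −0.11 for KIF22 and −0.08 for KIF4A (chromosome-bound motors), −0.11 for KIF20A and 0.15 for KIF20B (midzone motors) and 0.20 for KIF14 (a motor of cytokinesis). KIF2C varied little, at 386, 392 and 380 CPM with DMSO and 426, 393 and 403 CPM with FT671, so that a standard error of 0.066 stood behind its value. KIF2A is also used outside mitosis, and 2446 of its exonic bases are shared with the opposite-strand gene DIMT1, whose log2 fold change was 0.05. KIF14, KIF20B and KIF11 were all highest in DMSO replicate 3, at 68.8, 49.5 and 90.6 CPM. Without that library KIF14 and KIF20B passed the test, so that 3 mitotic kinesins were upregulated in place of 1. The part of that library in the mitotic values was not tested further.

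Among the 13 tested mitotic kinesins, 10 held the promoter letters shown above, and these had 4 downregulated genes and 1 upregulated gene, with log2 fold changes from −1.16 to 0.53. The 3 without the letters were KIF20A, KIF2A and KIF2C, which were not called. KIF18B, KIF23, KIFC1 and KIF15 therefore share a match near the start while KIF15 differs from the others in direction, and KIF11 and KIF4A hold a match and did not pass the test. No test was made of the letters against expression.

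The transport kinesins were lower more often, with 9 of 15 downregulated (60%) and 2 upregulated at an adjusted p of 0.05. The downregulated share was 30.8% among the mitotic kinesins, 26.5% among all genes and 29.1% among protein-coding genes. The median log2 fold change of the transport kinesins was −0.43, and the difference between these lists was not tested. Their summed expression was 929, 925 and 979 CPM with DMSO and 707, 683 and 697 CPM with FT671. The count of 9 downregulated genes stayed at 9 whichever library was left out. Transport kinesins are long transcripts, with a median exon length of 9602 bases against 5281 for the mitotic kinesins and 4736 for all genes tested, and correcting for length moved their median to −0.31.

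KIF5B, the ubiquitous heavy chain of kinesin-1 that moves mitochondria, lysosomes and many vesicles, had the smallest adjusted p of all members. It stood at 175, 169 and 204 CPM with DMSO and at 83.5, 87.7 and 88.4 CPM with FT671. Every FT671 library was far below every DMSO library. The log2 fold change was −1.07 (SE 0.085, edgeR adjusted p = 3.06e-07). KIF13A, which carries recycling endosomes and mannose 6-phosphate receptors, stood at 111, 115 and 129 CPM with DMSO and at 54.2, 62.4 and 68.5 CPM with FT671. The groups were again apart, with a log2 fold change of −0.92 (SE 0.096, edgeR adjusted p = 3.91e-06).

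KIF13B, the close relative of KIF13A, stood at 44.4, 44.4 and 43.4 CPM with DMSO and at 32.9, 29.2 and 29.0 CPM with FT671. It fell by 0.55 (edgeR adjusted p = 3.96e-04), less than KIF13A in these libraries. Of its exonic bases, 585 are shared with an opposite-strand non-coding gene that held 6 to 56 counts, where KIF13B held 148 to 641. KIF21B, a motor that also slows microtubule growth and for which the study lists ChIP primers, stood at 60.3, 60.7 and 59.9 CPM with DMSO and at 44.2, 45.3 and 46.9 CPM with FT671. Its DMSO libraries nearly coincided, and KIF21B fell by 0.40 (SE 0.086, edgeR adjusted p = 0.00147).

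The other downregulated transport kinesins were KIF1B, a carrier of mitochondria and synaptic vesicle precursors (−0.43, adjusted p = 4.72e-04), KIF5A, a kinesin-1 heavy chain best known from neurons (−0.50, adjusted p = 0.00125), and KIF16B, a motor of early endosomes (−0.50, adjusted p = 0.00149), all on the log2 scale by edgeR. KIF3B, a subunit of heterotrimeric kinesin-2, fell by 0.46 (edgeR adjusted p = 0.00192). KIFC3, a minus-end motor of the Golgi and of cell junctions, fell by 0.57 (edgeR adjusted p = 0.00322), but its highest FT671 library (49.7 CPM) was above its lowest DMSO library (49.2 CPM). KIF5A shares 71 exonic bases with the opposite-strand dynactin gene DCTN2, which fell by 0.54.

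The upregulated transport kinesins were KIFC2, a minus-end directed motor, at 0.39 (edgeR adjusted p = 0.0338) and KIF3C, the third kinesin-2 motor subunit, at 0.27 (edgeR adjusted p = 0.045). Both calls were fragile. That of KIFC2 was lost under 6 and that of KIF3C under 10 of 17 alternatives, and the count of 2 upregulated genes went to 0 without DMSO replicate 1 or without DMSO replicate 2, to 1 without FT671 replicate 3 and to 5 without DMSO replicate 3. KIFC2 shares 791 exonic bases with the opposite-strand gene FOXH1. The 4 transport kinesins that did not pass the test had log2 fold changes of 0.69 for KIF1A (edgeR adjusted p = 0.0515, 2.47 to 5.90 CPM), 0.21 for KIF21A, 0.14 for KIF1C and −0.32 for KIF3A. KIF1A passed under 8 of 17 alternatives, with 0.85 without FT671 replicate 2 and 0.21 without FT671 replicate 3, and KIF21A passed under 5.

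**Figure D3:**
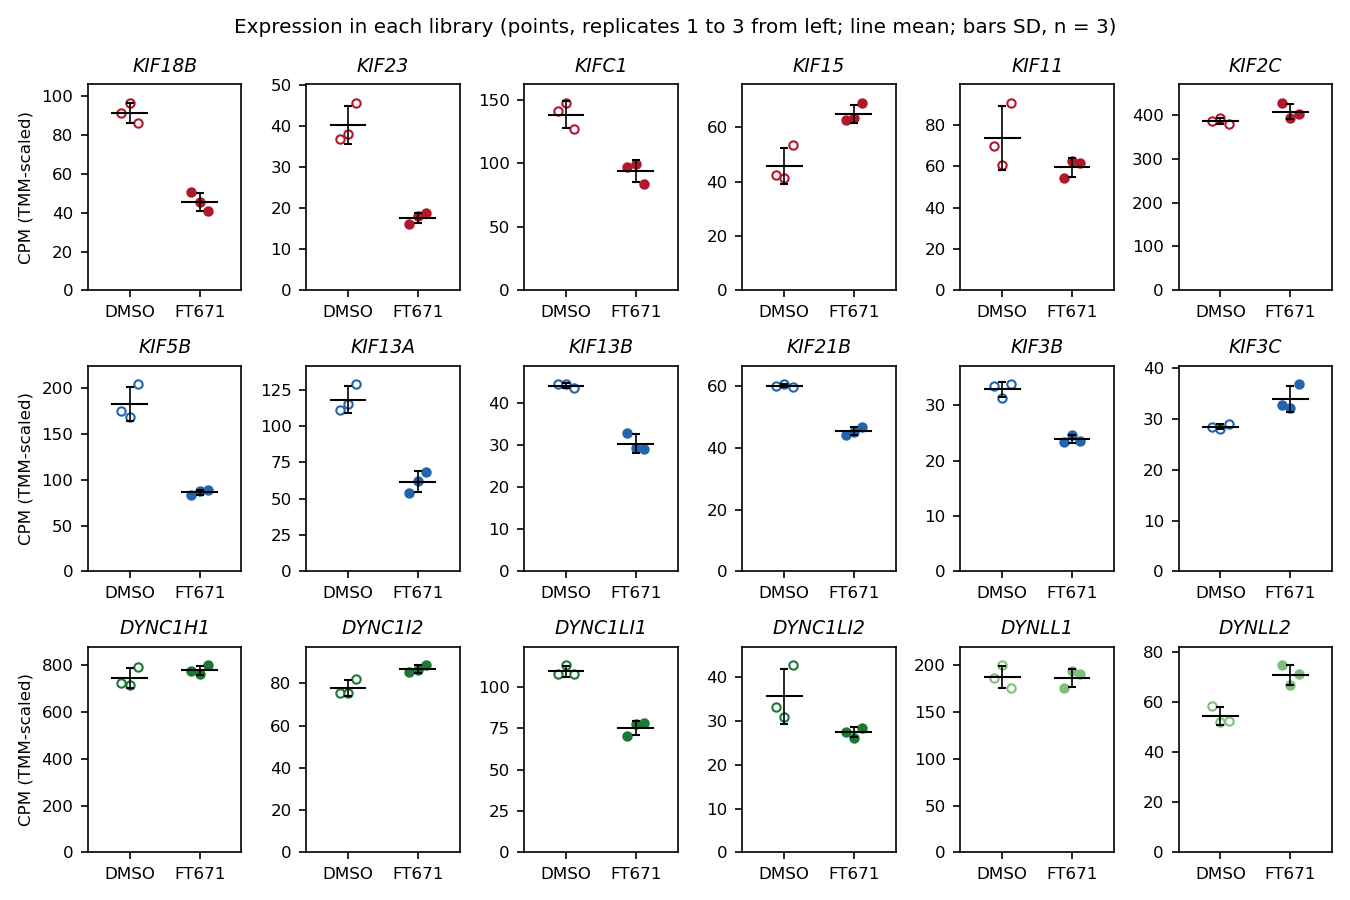
Expression in CPM (y axis, from 0) of 18 members in each DMSO library (open points) and FT671 library (filled points), with the mean as a line and the SD as a bar (n = 3); red, blue and green mark mitotic kinesins, transport kinesins and dynein chains. The FT671 points lie below all DMSO points for KIF18B, KIF23, KIFC1, KIF5B, KIF13A, KIF13B, KIF21B, KIF3B, DYNC1LI1 and DYNC1LI2, above them for KIF15, KIF2C, KIF3C, DYNC1I2 and DYNLL2, and among them for KIF11, DYNC1H1 and DYNLL1.

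Of the 10 other kinesins, 4 were tested. KIF24, a depolymerase that restrains cilium formation, stood at 17.6, 16.3 and 19.96 CPM with DMSO and at 14.7, 12.6 and 12.9 CPM with FT671, without overlap, and fell by 0.42 (edgeR adjusted p = 0.0176). KIF9, a motor of motile cilia, stood at 10.5, 8.70 and 8.32 CPM with DMSO and at 15.1, 12.6 and 11.2 CPM with FT671, also without overlap, and rose by 0.44 (edgeR adjusted p = 0.0358). These calls were lost under 5 and 8 of 17 alternatives. Leaving out FT671 replicate 2 or 3 ended the call of KIF24, and leaving out DMSO replicate 2 or 3 or FT671 replicate 1 or 2 ended that of KIF9. KIF9 overlaps KIF9-AS1 by 870 and KLHL18 by 178 exonic bases on the opposite strand. KIF24 shares 144 exonic bases with the opposite-strand gene UBAP1, which rose by 0.42. UBAP1 held 314 to 989 counts per library, against 66 to 254 for KIF24. KIF27, a relative of the Hedgehog regulator KIF7, stood at 2.15, 1.92 and 2.40 CPM with DMSO and at 3.11, 2.16 and 3.84 CPM with FT671, with overlapping groups. The log2 fold changes of KIF27 (0.58) and KIF7 (0.19) did not pass the test. KIF7 shares 589 exonic bases with the opposite-strand gene TICRR, which held 231 to 592 counts against 14 to 48 for KIF7.

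In dynein-1 the light intermediate chains, which link the motor to its cargo adaptors, were downregulated, and the heavy and intermediate chains did not pass the test. DYNC1LI1 stood at 107, 113 and 107 CPM with DMSO and at 70.2, 77.4 and 77.8 CPM with FT671. These groups were clearly apart, and the log2 fold change was −0.54 (SE 0.078, edgeR adjusted p = 7.17e-05). DYNC1LI2 stood at 33.2, 30.8 and 42.7 CPM with DMSO and at 27.5, 26.2 and 28.4 CPM with FT671. It fell by 0.35 (edgeR adjusted p = 0.0327), a call that was lost under 8 of 17 alternatives, among them those without DMSO replicate 3 and without any 1 of the FT671 libraries. Of its exonic bases, 1790 are shared with an opposite-strand non-coding gene that fell by 0.88, with 11 to 61 counts against 124 to 480 for DYNC1LI2.

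DYNC1I2, the intermediate chain that connects to dynactin, stood at 75.6, 75.6 and 82.3 CPM with DMSO and at 85.3, 86.6 and 88.7 CPM with FT671. All FT671 values were higher by a small margin, and the log2 fold change of 0.16 did not pass the test (edgeR adjusted p = 0.0936), although it did without DMSO replicate 3. The heavy chain DYNC1H1, which holds the motor domain and had the most counts of all members, ranged from 714 to 793 CPM with DMSO and from 763 to 800 CPM with FT671. Its log2 fold change of 0.07 had an SE of 0.068, and it did not pass the test. Summed over all dynein members, expression was 1395, 1383 and 1444 CPM with DMSO and 1420, 1405 and 1462 CPM with FT671, and the groups overlapped.

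Of 6 light chains tested, 1 was upregulated (DYNLL2, 16.7%), beside 23.6% of all genes. None was downregulated by edgeR, beside 26.5% of all genes. Nor was any lower by DESeq2's Wald test or at an unadjusted edgeR p of 0.05. DYNLL2 is a dimeric hub that binds dynein and other partners, myosin V among them. It stood at 58.7, 52.0 and 52.7 CPM with DMSO and at 74.8, 66.8 and 71.5 CPM with FT671, without overlap. The log2 fold change was 0.38 (SE 0.09, edgeR adjusted p = 0.00309). Its close relative DYNLL1 had a value of −0.005 with an SE of 0.075 and an overlapping range. Its pseudogenes held at most 3 counts, but how reads that fit several such copies were counted is not given.

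The remaining tested light chains lay near 0 or were weakly expressed. DYNLT1 stood at 29.4, 28.7 and 31.2 CPM with DMSO and at 32.6, 28.9 and 33.3 CPM with FT671 (log2 fold change 0.10). DYNLT2 stood at 1.52, 0.916 and 1.48 CPM with DMSO and at 0.888, 1.26 and 2.41 CPM with FT671 (0.42, SE 0.39). Both overlapped between the groups, as did DYNLRB1 (0.11) and DYNLT3 (0.13). In dynein-2, DYNC2I2 stood at 101, 91.3 and 76.2 CPM with DMSO and at 96.4, 77.9 and 81.7 CPM with FT671. DYNC2LI1 stood at 15.9, 16.7 and 20.5 CPM with DMSO and at 17.1, 20.7 and 18.1 CPM with FT671. DYNC2I1 stood at 37.3, 33.2 and 39.7 CPM with DMSO and at 39.8, 32.8 and 42.8 CPM with FT671. These dynein-2 chains had log2 fold changes of −0.08, 0.10 and 0.09 and overlapping groups, and none of them passed the test of edgeR or of DESeq2 or had an unadjusted edgeR p under 0.05. Without DMSO replicate 3, DYNC2I2 passed as downregulated.

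Related motors could be compared within each library, which removes the scaling between libraries. For 30 pairs, of the same family and role or with related functions (KIF11 with KIF15), the log2 ratio of CPM was compared between the groups by a two-sided exact permutation test, in which 3 libraries against 3 cannot give a p under 0.1. The smallest Benjamini-Hochberg adjusted p over the 30 pairs was 0.143, so no pair passed. The ratio of KIF11 to KIF15 was 0.67 ± 0.11 with DMSO and −0.13 ± 0.097 with FT671 (SD, n = 3, exact permutation p = 0.1). The ratio of KIF3B to KIF3C went from 0.21 ± 0.044 to −0.50 ± 0.13, and that of KIF21A to KIF21B from −0.48 ± 0.11 to 0.13 ± 0.017 (SD, n = 3, exact permutation p = 0.1 for both). The ratio of DYNC1LI1 to DYNC1LI2 moved from 1.63 ± 0.28 to 1.46 ± 0.11 with overlapping libraries (exact permutation p = 0.4).

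Per kilobase of merged exons, the DMSO level was highest for KIF2C (105.8 ± 1.65 CPM per kilobase, SD, n = 3), followed by DYNLL1 (63.8 ± 4.15) and KIFC1 (45.7 ± 3.51). DYNC2I2 (33.4 ± 4.62), KIF5B (31.2 ± 3.21), KIF22 (28.7 ± 2.0) and KIF20A (28.5 ± 1.74) came next and lay within each other's spread from one neighbour to the next. The lowest tested levels were those of KIF27 (0.279 ± 0.031) and KIF1A (0.153 ± 0.014). With FT671, KIF5B was at 14.8 and KIFC1 at 31.0 CPM per kilobase, whereas KIF2C was at 111.7. When the length of the canonical transcript was used, DYNLL1 (281.9) came before KIF2C (134.7), KIF22 (98.7) before KIFC1 (57.9), and KIF27 (0.297) just below KIF1A (0.3002).

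The 16 members that were not tested had too few counts. KIF2B, KIF5C, KIF26A and DYNLT5 had 0 counts in every library, which allows up to 3 counts, or 0.666 CPM in the shallowest library. KIF6, KIF12 and DYNLRB2 had 1 count in 1 library. KIF19 had 0 to 2 counts, KIF25 0 to 6, DYNLT2B 1 to 7, KIF26B 1 to 8 and DYNLT4 0 to 9. KIF4B, which is nearly identical in sequence to KIF4A and is therefore uncertain, had 3 to 11 counts, and the dynein-1 intermediate chain DYNC1I1, known from neurons, had 0 to 15. KIF17 and the dynein-2 heavy chain DYNC2H1 had 1 to 17. KIF17, a kinesin-2 motor of cilia and dendrites, had 3, 3 and 1 counts with DMSO and 4, 9 and 17 with FT671, without a test.

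The partners of these motors were followed as lists of genes. They are to be read beside all genes, of which 26.5% were downregulated and 23.6% were upregulated. Among protein-coding genes these shares were 29.1% and 24.7%. Among 14 tested kinesin light chains and cargo adaptors, 8 were downregulated and 1 was upregulated, with a median log2 fold change of −0.35. The downregulated genes included PLEKHM2 (−0.73), which joins lysosomes to kinesin-1, KLC2 (−0.75), a kinesin-1 light chain, and KIFBP (−1.04), a kinesin-binding protein. The upregulated gene was MAPK8IP1 (1.01). PLEKHM2 and KLC2 are known parts of the route by which kinesin-1 moves lysosomes, and a change in that route was not tested. Among 11 tested dynein adaptors and regulators, 4 were downregulated and 1 was upregulated. They included BICD1 (−0.87), an adaptor of Golgi-derived vesicles, PAFAH1B1 (−0.72), which encodes LIS1, RAB11FIP3 (−1.06), an adaptor of recycling endosomes, and NIN (0.50), a centrosomal adaptor. Of 12 dynactin subunits, 2 were downregulated and 3 were upregulated. They included DCTN2 (−0.54), CAPZB (0.40), DCTN4 (0.30) and DCTN1 (0.29), the subunit that contacts the dynein intermediate chain. Without DMSO replicate 3 the count of upregulated dynactin genes was 5, and that of downregulated ones was 1 without any 1 of the other libraries.

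The spindle and cytokinesis genes that work with mitotic kinesins went in both directions too. Of 23 tested, 9 were downregulated and 4 were upregulated, with a median log2 fold change of −0.13, beside 26.5% and 23.6% of all genes. PLK1 (−0.90) and AURKA (−0.78), the kinases of mitotic entry and spindle assembly, NUMA1 (−0.56), which anchors dynein at the poles, and CCNB1 (−0.54), which encodes cyclin B1, had the smallest adjusted p. The 4 upregulated genes were CENPE (0.45), CKAP5 (0.40), BUB1 (0.29) and TPX2 (0.28). The count of upregulated genes was 2 without DMSO replicate 1, FT671 replicate 2 or FT671 replicate 3 and 6 without DMSO replicate 3. Of the 16 G1/S genes, 7 were downregulated and 3 were upregulated. PCNA (−1.44), CDC6 (−0.46) and MCM3 (−0.45) fell and MCM4 (0.45) rose. The part of a shift in cell cycle phase in the values of the mitotic kinesins was not tested.

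**Figure D4:**
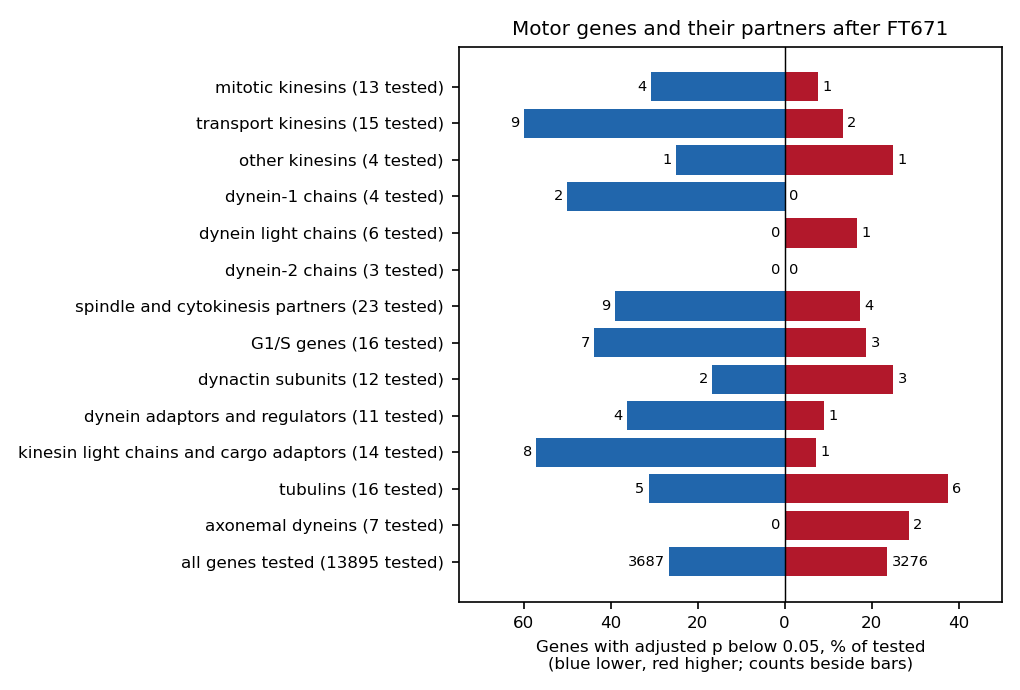
Percentage of the tested genes of each role and partner list that were downregulated (blue, to the left) or upregulated (red, to the right) at an adjusted p of 0.05, with the counts beside the bars and all 13895 genes in the lowest bar. Transport kinesins (9 of 15) and kinesin light chains and cargo adaptors (8 of 14) have the longest blue bars among the lists drawn, whereas tubulins have 6 red beside 5 blue.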

How the data were processed

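For each of the 6 RNA-seq libraries the authors deposited 1 count of reads per gene, without normalization. According to the study's methods and the labels, libraries were made after RiboErase depletion of ribosomal RNA (KAPA RNA HyperPrep) and paired-end reads were aligned to hg38 with STAR. The STAR version, the annotation release and the strand setting of the counting are not given in the sources used here. Exons of 28 members overlap those of another gene, and only some of these overlaps are named. Identifiers without version were matched to GENCODE release 44 (60295 of 60609), and the 314 unmatched identifiers, which held 0.0609% of counts, stayed in the fit.

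Genes were filtered with filterByExpr, scaled by TMM and tested with glmQLFit and glmQLFTest of edgeR 4.0.16 in R 4.3.3, with 3 libraries per group and no covariate. DESeq2 1.42.0 served as an alternative. In simulated counts the fit recovered 90 of 100 genes changed by 1 on the log2 scale and 44 of 100 changed by 0.5. With simulated replicate effects and no block, it recovered 61 of 100 and 0 of 100. Values in every library are given for members past 1e-05, for the 3 tested members of each role with the smallest adjusted p and for KIF21B; partner lists name up to 4 genes, of which 1 is not reported here. KIF15, KIF11, KIF2C and DYNC1H1 were added after their values were seen, as were the upregulated kinesin cargo adaptor and spindle genes. The members and lists were chosen with earlier results of these data known. Levels between genes are CPM per kilobase of merged exons. Alternatives were other scalings, filters, a replicate block, corrections for exon length and GC content (loess, span 0.3), thinning every library to the smallest total and leaving out each library. The canonical transcript length was added after seeing the data. Promoter windows are those of RefSeq, of which 65 belonged to members.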

Additional observations from a re-analysis of the deposited data

How the results depend on the processing

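Of 21 called members, 14 stayed called in the same direction under all 17 alternatives, and 7 lost the call under at least 1 (KIF18A, KIF3C, DYNC1LI2, KIF9, KIFC2, KIF24 and KIF16B). Of 24 members not called, 14 passed under at least 1. At an adjusted p of 1e-05 by edgeR there were 2 downregulated mitotic and 2 downregulated transport kinesins, 4 of all members and 0 dynein chains, and 0 upregulated genes in each list, while DESeq2's Wald test gave 3, 2, 6 and 1 downregulated and again 0 upregulated. Downregulated mitotic kinesins numbered 4, but 3 after length correction, 6 after GC correction with the replicate block, and 3 to 5 when a library was left out. Upregulated mitotic kinesins numbered 1, but 2 after length or GC correction with or without the replicate block, and 1 to 3 when a library was left out. Upregulated transport kinesins numbered 2, but 0 with library totals alone or thinning, 1 with the Wald test or without a filter, 5 after length correction (with or without the block) or GC correction, 4 after GC correction with the block, and 0 to 5 when a library was left out. Upregulated dynein chains numbered 1, but 3 after length correction with or without the block, 2 after GC correction with the block, and 1 to 2 when a library was left out. Downregulated dynein chains numbered 2, but 1 with the Wald test, length correction with or without the block or thinning, and 1 to 2 when a library was left out. Upregulated members numbered 5, but 2 with library totals alone or thinning, 3 with the Wald test or without a filter, 12 after length correction, 11 with the block added, 9 after GC correction with or without the block, and 2 to 10 when a library was left out, the 10 being without DMSO replicate 3. The median log2 fold change of mitotic kinesins went from −0.11 to −0.018 after length correction and −0.025 with the block. That of transport kinesins went from −0.43 to −0.31 and −0.30. The median over all members ranged from −0.0647 to 0.038 when a library was left out, the latter without FT671 replicate 1. The median of all genes moved by at most 0.054.

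Values near 0 changed sign for members that were not called. DYNLL1 was 0.014 with DESeq2's size factors and with its Wald test, 0.0735 after GC correction, 0.0697 with the block added, 0.0113 after thinning, and −0.0516 to 0.0502 when a library was left out. DYNC2I2 was 0.0079 after GC correction, 0.0175 with the block and −0.191 to 0.0108 with a library left out, and DYNC2I1 was −0.00657 after thinning and −0.0125 to 0.185 with a library left out. KIF22 and KIF2A were 0.00926 and 0.0321 after length correction and 0.0116 and 0.0245 with the block. With a library left out, DYNLT3 ranged from −0.00969 to 0.268, KIF4A from −0.132 to 0.00343 and KIF20B from −0.018 to 0.42.

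Whether the replicate numbers pair the libraries is not stated, and 3 libraries per group cannot decide it. Across genes the deviations of same-numbered libraries had correlations of 0.115, −0.0605 and 0.14. With the replicate block, 1 transport kinesin was upregulated in place of 2, and 3374 genes were upregulated and 3761 downregulated over the whole table, against 3276 and 3687. With totals from 4555220 to 14250500, depth limits weakly expressed members most, since the 16 untested members had at most 17 counts in any library.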

Other observations

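Tubulins form the microtubules on which these motors move. Of 16 tested tubulin genes, 6 were upregulated (37.5%) and 5 were downregulated (31.3%), beside 23.6% and 26.5% of all genes. TUBB4B, a beta-tubulin with high expression in these cells, stood at 374, 394 and 321 CPM with DMSO and at 198, 142 and 164 CPM with FT671 (log2 fold change −1.12, edgeR adjusted p = 2.18e-06). TUBB4A, a beta-tubulin best known from the nervous system, rose from 5.06, 6.32 and 6.28 CPM to 23.8, 23.6 and 22.3 CPM (2.0, edgeR adjusted p = 1.47e-07). TUBB2B (1.85) and TUBB2A (0.70) were upregulated as well. Summed over the list, tubulin expression was 4611, 4830 and 4462 CPM with DMSO and 4935, 4913 and 4918 CPM with FT671. Beta-tubulin genes are close in sequence, and how reads that fit several of them were counted is not given.

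Axonemal dyneins drive the beating of motile cilia and flagella. Of 18 listed genes, 7 passed the filter on low counts. Of these, 2 were upregulated (28.6%), beside 23.6% of all genes. DNAH14 stood at 43.9, 44.5 and 45.7 CPM with DMSO and at 69.7, 85.3 and 85.1 CPM with FT671 (log2 fold change 0.85, edgeR adjusted p = 7.83e-06), and DNAH8 rose by 0.97 (edgeR adjusted p = 0.00206). No axonemal dynein that passed the filter was downregulated by edgeR or by DESeq2's Wald test, nor lower at an unadjusted edgeR p of 0.05. Without that filter 2 were downregulated by edgeR, and 2 were when DMSO replicate 3 was left out. Of the erythroid markers, HBG1 rose by 1.41 and HBG2 by 1.22 on the log2 scale.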
